A study of Homo sapiens with 24 samples.

Results

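The genes described here are 33 genes of the G1/S transition and of DNA replication, out of 19775 genes measured with at least 1 probe set that names a single gene. They were listed by name, as parts of the replication machinery or its regulators, and no measured value enters the rule, although the list was drawn up with earlier results of these data known. All 33 had such a probe set, no filter on low values was applied, and each was followed through its brightest single-gene probe set in HCT15 and HT115, both colorectal cancer cell lines that the labels describe as having lost the function of the kinase MLK4 (MAP3K21) by mutation. The design gives 4 engineered derivatives with tetracycline-inducible MLK4: wild type (WT) or the mutant control Y330H in HCT15, and WT or the mutant control E314K in HT115. For each derivative there were 3 arrays marked Tet, from cells given tetracycline for 24 h, and 3 without the mark, called untagged because the labels do not state what those cells received. That makes 8 groups of 3 arrays, and the control forms are themselves mutant kinases expressed in lines whose own MLK4 is mutated. The labels do not say whether a derivative is a clone or a pool, or whether arrays of a group came from separate cultures, so the p-values reflect no more than the spread of these arrays, which may be technical. The comparison asks whether restored MLK4 lowers the expression of S-phase genes.

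As background, cells licensed for replication load the MCM2 to MCM7 helicase onto origins with the help of ORC1, CDC6 and CDT1, and fire it with CDC45 and the GINS complex. Cyclin E and its kinase relieve the RB brake on E2F factors, and E2F then drives transcription of most of the replication genes. The inhibitor p21, product of CDKN1A, acts against cyclin-dependent kinases upstream of this step, and JNK with its target JUN is the pathway that mixed-lineage kinases such as MLK4 feed.

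Promoter sequence did not enter the choice of the genes and was searched for the E2F element, which a minority of them held. In RefSeq promoter windows of 250 bases before a transcript start (GRCh38.p14), at least 1 E2F-type octamer (TTTCCCGC, TTTCGCGC, TTTGCCGC or TTTGGCGC, either strand) was found in 13 of 39 member windows, or 33.3%, against 2.79% of all 35116 windows. By gene, 12 of the 30 members with an entry held a match. The CCAAT box (CCAAT, either strand) was present in 61.5% of member windows and in 32.0% of all windows. The CHR element of mitotic genes (TTTGAA or TTCGAA, either strand) was present in 5.13% of member windows and 14.3% of all windows. In windows of 25 listed G2/M genes, 19 of which had an entry, the share with an E2F octamer was 12.5% and the share with a CHR was 50%. MCM4, MCM5 and CCNE2 had no entry. The windows below are those that hold 2 or more octamer matches, and show how the element lies in a helicase gene pair and in an E2F gene itself. They run 5′ to 3′ along the gene's strand up to the base before the start, with the octamers in capitals.
MCM6 (chr2:135876444-135876693, minus strand): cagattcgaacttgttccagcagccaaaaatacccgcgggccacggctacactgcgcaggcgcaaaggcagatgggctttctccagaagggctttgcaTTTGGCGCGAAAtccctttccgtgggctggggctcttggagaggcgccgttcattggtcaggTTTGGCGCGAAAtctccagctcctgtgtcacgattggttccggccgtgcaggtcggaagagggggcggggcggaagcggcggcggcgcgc
MCM7 (chr7:100101398-100101647, minus strand, 1 of its listed starts): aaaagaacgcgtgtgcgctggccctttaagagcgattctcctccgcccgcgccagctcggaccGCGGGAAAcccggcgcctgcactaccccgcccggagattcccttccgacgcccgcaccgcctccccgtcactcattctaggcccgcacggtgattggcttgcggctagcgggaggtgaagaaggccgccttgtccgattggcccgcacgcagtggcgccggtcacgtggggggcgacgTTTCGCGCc
E2F1 (chr20:33686386-33686635, minus strand): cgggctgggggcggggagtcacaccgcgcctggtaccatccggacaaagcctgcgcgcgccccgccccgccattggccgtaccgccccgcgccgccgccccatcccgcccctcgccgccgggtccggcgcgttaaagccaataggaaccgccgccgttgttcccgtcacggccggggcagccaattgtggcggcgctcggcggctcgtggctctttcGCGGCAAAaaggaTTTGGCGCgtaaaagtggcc
MCM6 carried 4 matches as 2 pairs that overlap on opposite strands, the first from 152 bases before the start and the second from 90. MCM7 carried 1 match 187 bases before the start and 1 match 9 bases before it. In E2F1 the matches began 33 and 20 bases before the start. A match describes the letters of a window and is not evidence of binding in these cells.

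All values below are the authors' deposited RMA values on the log2 scale, and changes are differences of log2 means with standard errors (SE) or 95% confidence intervals from 1 limma fit of all 24 arrays. That fit pools the spread of a gene over all 8 groups, so a group with a wide spread also widens the SE in the other derivatives. Genes with an adjusted p under 0.05 (Benjamini-Hochberg, all 19775 genes) are termed called. The 6 HT115 WT arrays had array medians of 5.55 to 5.61 and the other 18 had 6.38 to 6.48, so HT115 WT levels were not set against other arrays and only changes within HT115 WT were used. The probe set of MAP3K21 did not follow the induction, with a change of -0.15 (SE 0.13) in HCT15 WT and -0.19 (SE 0.13) in HT115 WT; whether it lies within the induced cDNA is not known, and it checks nothing. Epithelial markers were present in both lines: EPCAM averaged 12.6 over the 12 HCT15 arrays and 12.6 over the 6 HT115 E314K arrays, and KRT18 averaged 13.3 and 13.5. CDH1 was brighter in HCT15, at 12.7 against 10.3 in HT115 E314K. Intestinal markers were dimmer in HCT15, with KRT20 at 4.58 and LGALS4 at 5.46, against 9.52 and 12.9 in HT115 E314K. The medians of the fibroblast and endothelial marker lists lay between 5.75 and 5.93 in both lines, and those of the leukocyte list were 4.81 in HCT15 and 5.28 in HT115 E314K. Within that list LYZ, lysozyme, averaged 13.7 in HT115 E314K and 4.53 in HCT15, and CD14 averaged 5.61 and 7.72. The log2 difference between the 3′ and 5′ ACTB control probe sets, a sign of RNA integrity, was 1.17 and 0.93 in the untagged and Tet arrays of HCT15 WT numbered 1. In bulk RNA, fewer cells in S phase and less RNA per cell cannot be told apart.

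None of the 33 genes was called in HCT15 on induction of wild-type MLK4. Their changes ran from -0.31 for CCNE2 to 0.27 for CCNE1, 22 were below 0 and 11 above, and the median was -0.078. Over all genes 11486 changes were below 0 and 8289 above, and the median was -0.034. Of these genes 138, or 0.698% of those tested, were called. The median of the members moved to -0.02 without both HCT15 WT arrays numbered 1. In HT115 WT none of the 33 genes was called either, against a background of 0.147%. There 22 changes were below 0 (10975 of 19775 over all genes), and the median was -0.031 (-0.019 over all genes). The HT115 WT median was -0.011 with median-centred arrays and -0.046 with quantile normalization. The extremes there were -0.18 for MCM4 and 0.12 for ORC1. In this fit no member reached an unadjusted p under 0.05 in either wild-type induction, where 1851 (HCT15 WT) and 1537 (HT115 WT) of all 19775 genes did. The pooled spread behind these p-values includes the HCT15 Y330H arrays numbered 1, which stood apart for many members, as given below.

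The replicate numbers paired the HCT15 arrays, and limma with the replicate number as a block called 4.86% of all genes in HCT15 WT but again 0 of the 33 members. With that block 3654 of all 19775 genes had an unadjusted p under 0.05. So did 5 of the 33 members, a share no larger than that of all genes. These were CCNE2 (change -0.31, adjusted p = 0.0982), CCNE1 (0.27, adjusted p = 0.162), MCM2 (-0.22, adjusted p = 0.179), POLA1 (-0.22, adjusted p = 0.246) and GINS3 (0.21, adjusted p = 0.249). Their directions were mixed, with 3 below 0 and 2 above. In HT115 WT the block fit gave 1 member, MCM4 (change -0.18, limma unadjusted p = 0.0239, adjusted p = 0.291), where 2638 of all 19775 genes had an unadjusted p under 0.05.

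**Figure D1:**
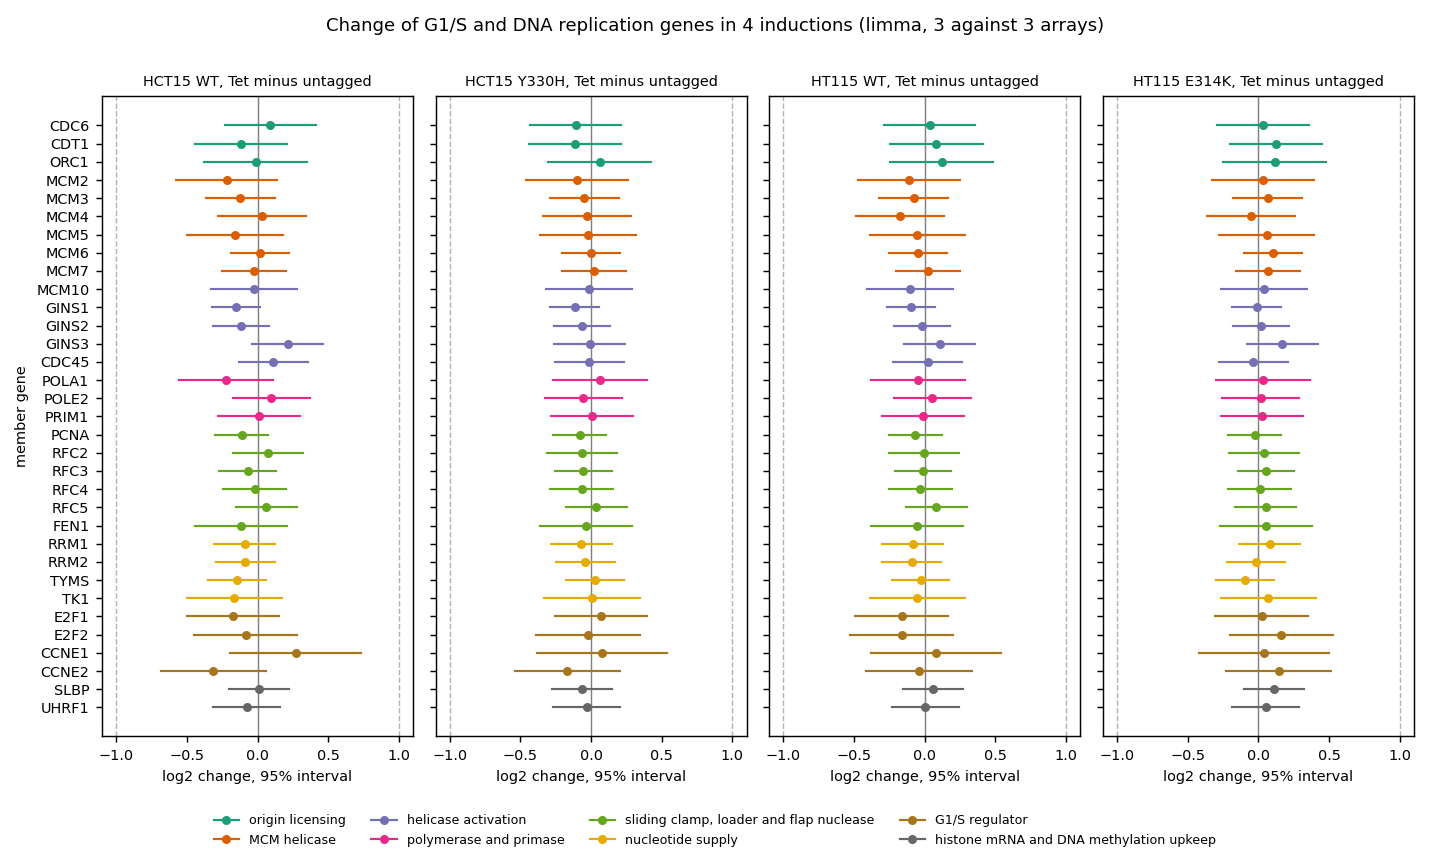
Log2 change (Tet minus untagged, x axis) of each of the 33 genes (y axis, coloured by role) in the 4 inductions, as points with 95% intervals from limma on 3 against 3 arrays; the dashed lines mark a 2-fold change. In this fit, without the replicate block, every interval includes 0 and none reaches a 2-fold fall. CCNE2 at -0.31 and CCNE1 at 0.27 in HCT15 WT are the outermost points.

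Among the licensing factors, the changes were small in both lines. CDC6, which with CDT1 recruits the helicase to origins, changed by 0.09 in HCT15 WT and 0.03 in HT115 WT. CDT1 itself changed by -0.11 and 0.08. ORC1, the largest subunit of the origin recognition complex, changed by -0.01 and 0.12.

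The 6 subunits of the MCM helicase, the ring that unwinds DNA ahead of the fork, changed by -0.22 to 0.03 in HCT15 WT and -0.18 to 0.02 in HT115 WT. MCM2 read 11.29, 11.39 and 11.40 in the untagged HCT15 WT arrays numbered 1, 2 and 3, and 11.05, 11.14 and 11.23 in the Tet arrays. Every Tet array thus lay below every untagged one, and the change was -0.22 (SE 0.17, limma adjusted p = 0.771). This SE pools all groups. The MCM2 standard deviations were 0.06 untagged and 0.09 with Tet in HCT15 WT, against 0.34 and 0.45 in HCT15 Y330H. In HT115 WT the MCM2 values overlapped, at 11.19, 11.08 and 11.24 untagged and 11.08, 11.12 and 10.97 with Tet. MCM4, another ring subunit, was lowest of the 33 in HT115 WT. There it read 10.997, 11.12 and 10.95 untagged and 10.91, 10.84 and 10.78 with Tet, with no overlap and a change of -0.18 (SE 0.15, limma adjusted p = 0.931). In HCT15 WT it read 11.71, 12.19 and 12.20 untagged and 11.83, 12.22 and 12.15 with Tet, and the array number separated the values more than Tet did. Of the remaining subunits in HCT15 WT, MCM3 changed by -0.12, MCM5 by -0.16, MCM6 by 0.02 and MCM7 by -0.03. In HT115 WT the same 4 changed by -0.08, -0.05, -0.05 and 0.02.

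The factors that activate the helicase did not share a direction. GINS1, a subunit of the 4-protein GINS complex, read 11.46, 11.54 and 11.52 untagged and 11.33, 11.38 and 11.36 with Tet in HCT15 WT. These groups did not overlap, and the change of -0.15 (SE 0.083, limma adjusted p = 0.606) had the smallest p of the 33 genes in that induction. In the Y330H control GINS1 read 11.35, 11.34 and 11.28 untagged and 11.25, 11.15 and 11.22 with Tet, again without overlap, a change of -0.12 (SE 0.083). In HT115 WT the change was -0.10, with overlapping values of 10.48, 10.61 and 10.47 against 10.34, 10.50 and 10.42. GINS3, of the same complex, had its values at 8.68, 8.33 and 8.55 untagged and 8.71, 8.73 and 8.76 with Tet in HCT15 WT. Here every Tet array was above every untagged one, the opposite of GINS1, with a change of 0.21 (SE 0.12, limma adjusted p = 0.626). In HT115 WT it changed by 0.10, with values of 7.38, 7.52 and 7.32 against 7.37, 7.61 and 7.56. GINS2 read 11.28, 11.53 and 11.45 untagged and 11.19, 11.35 and 11.37 with Tet in HCT15 WT, a change of -0.12 with overlapping groups. In HT115 WT it changed by -0.02. CDC45, which joins MCM and GINS in the active helicase, changed by 0.11 in HCT15 WT without overlap and by 0.02 in HT115 WT. MCM10, which is needed for firing, changed by -0.03 and -0.10.

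POLA1, the catalytic subunit of the polymerase that starts new strands, read 10.90, 10.88 and 10.75 untagged and 10.51, 10.58 and 10.77 with Tet in HCT15 WT. Pairs 1 and 2 were lower with Tet and pair 3 was not, and the change was -0.22 (SE 0.16, limma adjusted p = 0.740). In HT115 WT it changed by -0.05, with overlapping arrays. PRIM1, the primase subunit that lays the RNA primer, changed by 0.01 and -0.02. POLE2, an accessory subunit of the leading-strand polymerase, changed by 0.10 and 0.05.

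PCNA, the sliding clamp that holds polymerases on DNA, read 12.40, 12.31 and 12.28 untagged and 12.18, 12.22 and 12.25 with Tet in HCT15 WT. Its groups did not overlap, but the change was -0.11 (SE 0.090, limma adjusted p = 0.773). In HT115 WT it was -0.07, with values of 11.08, 11.28 and 11.16 against 11.08, 11.24 and 10.99. The 4 clamp loader subunits changed by 0.08 (RFC2), -0.07 (RFC3), -0.02 (RFC4) and 0.06 (RFC5) in HCT15 WT, and by -0.01, -0.01, -0.03 and 0.08 in HT115 WT. FEN1, the nuclease that trims Okazaki fragments, changed by -0.12 and -0.06.

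On their brightest probe sets the 4 enzymes of deoxynucleotide supply were all below 0 in both wild-type inductions. They lay within -0.16 to -0.09 in HCT15 WT and -0.09 to -0.03 in HT115 WT. TYMS, which makes thymidylate, read 12.48, 12.45 and 12.43 untagged and 12.25, 12.35 and 12.33 with Tet in HCT15 WT. The groups did not overlap, and the change was -0.15 (SE 0.098, limma adjusted p = 0.705). In HT115 WT the TYMS values of 11.20, 11.18 and 11.17 untagged lay within the range of the Tet values 11.14, 11.07 and 11.26. TK1, thymidine kinase, changed by -0.16 and -0.05. Another TK1 probe set of similar level gave -0.17 in HCT15 WT and 0.09 in HT115 WT. RRM1 and RRM2, the subunits of ribonucleotide reductase, both changed by -0.09 in HCT15 WT and by -0.09 in HT115 WT.

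The G1/S regulators spread furthest. CCNE2, one of the cyclin E genes, read 10.42, 10.12 and 9.99 untagged and 10.08, 9.65 and 9.86 with Tet in HCT15 WT. All 3 pairs were lower with Tet while the groups overlapped, and the change was -0.31 (95% interval -0.69 to 0.06, limma adjusted p = 0.632). In HT115 WT CCNE2 changed by -0.04, with values of 7.52, 7.52 and 7.39 against 7.53, 7.24 and 7.55. CCNE1, the other cyclin E gene, had the opposite sign in HCT15 WT, at 10.80, 10.61 and 10.58 untagged and 11.03, 10.98 and 10.78 with Tet. It was higher with Tet in all 3 pairs, with a change of 0.27 (95% interval -0.19 to 0.73, limma adjusted p = 0.782). CCNE1 was singled out after its values were seen, as the highest change. In HT115 WT it changed by 0.08.

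E2F1, a transcription activator of the family, read 9.32, 9.18 and 9.23 untagged and 9.07, 9.03 and 9.14 with Tet in HT115 WT, without overlap. The change was -0.16 (SE 0.16, limma adjusted p = 0.969), beside -0.17 (SE 0.16) in HCT15 WT, where the groups overlapped at 9.96, 9.77 and 9.62 against 9.81, 9.44 and 9.57. E2F2, of the same family, changed by -0.16 in HT115 WT, with values of 9.48, 9.52 and 9.70 against 9.25, 9.46 and 9.49, and by -0.08 in HCT15 WT. SLBP, which binds histone mRNA in S phase, changed by 0.01 and 0.06. UHRF1, which carries DNA methylation through replication, changed by -0.08 and 0.003.

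**Figure D2:**
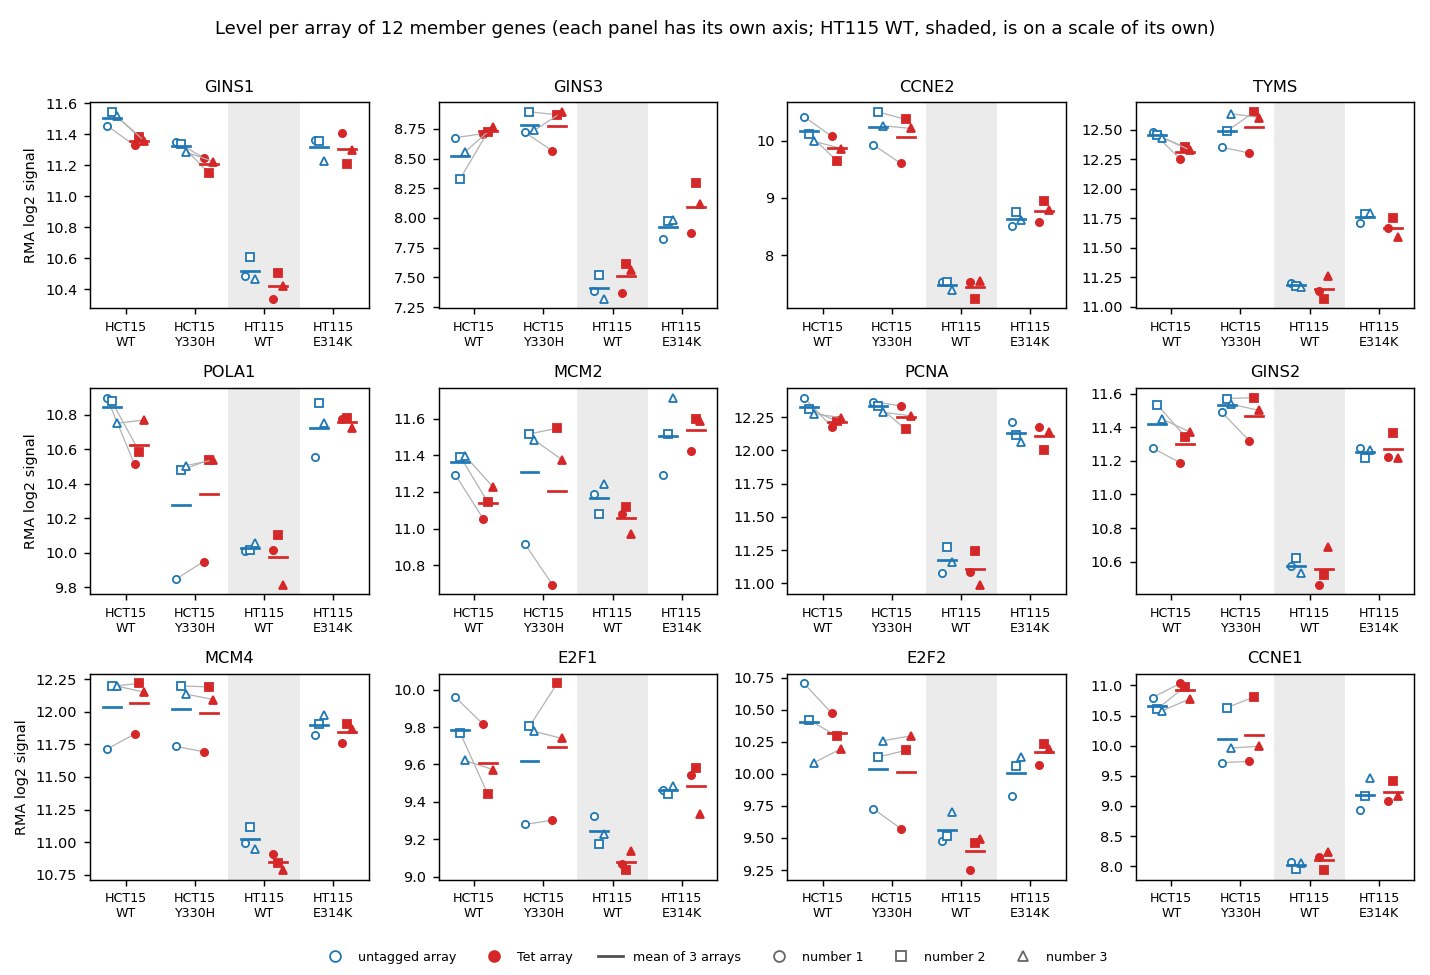
RMA log2 signal (y axis, scaled per panel) of 12 genes in each array of the 4 derivatives (x axis), open symbols untagged and filled symbols Tet, with group means as bars, symbol shape for array number, and lines joining same-numbered HCT15 arrays; HT115 WT (shaded) is on its own scale. Tet and untagged arrays differ less than arrays numbered 1 differ from the rest in several HCT15 Y330H panels, such as MCM2 (10.92 and 10.69 against 11.38 to 11.55).

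Whether Tet and untagged arrays overlapped was counted for every gene. In HCT15 WT every Tet array lay below every untagged one for 5 members (MCM2, MCM5, GINS1, PCNA and TYMS), and above for 2 (GINS3 and CDC45), where 7.46% and 6.41% of all genes did so. In HT115 WT 3 members were lower without overlap (MCM3, MCM4 and E2F1) and 0 higher, with 7.76% and 6.66% of all genes. In HCT15 Y330H 1 member, GINS1, was lower and 0 were higher, with 6.02% and 1.25% of all genes. In HT115 E314K 0 were lower and 2, MCM6 and FEN1, were higher, with 3.16% and 3% of all genes. Taken by pairs, 13 members were lower and 6 higher with Tet in all 3 HCT15 WT pairs, where 21.3% of all genes were lower and 18.6% higher throughout. No member was lower without overlap in both wild-type inductions, but the share of all genes that were was not counted, so nothing is drawn from this.

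The mutant control forms gave no calls among the members or any other gene: 0 of 33 and 0% of all genes in HCT15 Y330H, with or without the replicate block (0%), and 0 of 33 and 0% in HT115 E314K. The members' median change was -0.032 in Y330H, with 23 below 0, and 0.043 in E314K, with 6 below 0. No member reached an unadjusted p under 0.05 in either, where 614 (Y330H) and 313 (E314K) of all 19775 genes did. All genes together had medians of -0.020 in Y330H and 0.010 in E314K, with 11349 and 9036 changes below 0. The Y330H median lay between -0.11 and 0.09 when 1 or the other array numbered 1 was left out. CCNE2 changed by -0.17 (SE 0.18) with Y330H and 0.14 (SE 0.18) with E314K, so its direction in HCT15 was also seen with the mutant form.

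Differences between inductions were tested directly. The wild-type minus Y330H difference in HCT15 was called for 0 of 33 members, against 0.0607% of all genes, and for 0 of 33 with the replicate block, against 0.956%. The outermost members were POLA1, at -0.29 (95% interval -0.76 to 0.18), and GINS3, at 0.22 (-0.13 to 0.58). The wild-type minus E314K difference in HT115 was also called for 0 of 33, against 0.0152% of all genes, with E2F2 lowest at -0.33 (-0.84 to 0.19). Between the wild-type inductions of HCT15 and HT115, 0 of 33 differed, against 0.0253%. At an unadjusted p under 0.05, limma without the block gave 0 members in each of these 3 differences. Of all 19775 genes it gave 748, 564 and 680, in the order above. With the block the members numbered 0, 1 (E2F2) and 0, against 2039, 1375 and 1875 of all genes. These differences reuse the arrays of the single inductions and are not separate evidence.

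The intervals of the fit without the replicate block, which leaves the HCT15 pairing out, set a bound on what was missed. For all 33 genes the 95% interval of the change excluded a 2-fold fall in each of the 4 inductions. A 1.5-fold fall was excluded for 32 genes in HCT15 WT, all but CCNE2, whose interval reached down to 0.622 times the untagged level. It was excluded for all 33 in the other 3 inductions. A 20% fall was excluded for 19 genes in HCT15 WT, 22 in Y330H, 21 in HT115 WT and 30 in E314K. Smaller falls could not be resolved for the rest in this fit. These are intervals for single genes, on arrays whose signal can understate true ratios.

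The other genes of the pathway were taken from lists. Of 33 other replication fork and origin genes, 0 were called in HCT15 WT, with a median of -0.05. The smallest p was that of POLD3, a subunit of the lagging-strand polymerase (change -0.32, limma adjusted p = 0.187, and 0.0517 with the replicate block). Of 16 measured nucleotide, chromatin and repair genes of S phase, 0 were called, and of 8 measured replication-dependent histone genes 0 were called. Of 22 G1 cyclins, kinases and pocket proteins 0 were called without the block and 2 with it, where 4.86% of all genes were called. E2F6, a repressor of the E2F family, was higher (0.37, adjusted p = 0.026 in the block fit). SKP2, which marks p27 for destruction, was lower (-0.38, adjusted p = 0.0298 in the block fit). In HT115 WT E2F6 changed by 0.25 and SKP2 by -0.04, neither called. Of 25 G2/M genes 0 were called in HCT15 WT, with 23 below 0 and a median of -0.15, where 11486 of all 19775 genes were below 0. KIF20A, a mitotic kinesin, had the smallest p of these (-0.33, limma adjusted p = 0.295, and 0.0718 with the block). JUN was called at 1.04 (SE 0.16, limma adjusted p = 0.0017) in the same arrays. CDKN1A changed by 0.62 (SE 0.31, limma adjusted p = 0.548, or adjusted p = 0.0025 under the replicate block), and CDKN2B, the p15 gene, by 0.10 (SE 0.14). In HT115 WT JUN changed by 0.32 (SE 0.16), CDKN1A by 0.25 (SE 0.31) and CDKN2B by 0.20 (SE 0.14), none called. None of 8 reference genes was called in HCT15 WT, and in HT115 WT 0 genes of any of these lists were called.

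The untagged HCT15 derivatives differed at a share of members close to that of all genes. POLA1 was higher in WT than in Y330H by 0.57 (SE 0.16, limma adjusted p = 0.0377), and MCM10 by 0.50 (SE 0.15, limma adjusted p = 0.0469). These were 2 of 33 members, against 5.97% of all genes called, so the count says nothing particular to the members. Neither was called when all 54675 probe sets were tested together (limma adjusted p = 0.0507 for POLA1 and 0.0622 for MCM10). POLA1 read 10.90, 10.88 and 10.75 in WT and 9.85, 10.48 and 10.50 in Y330H. MCM10 read 11.56, 11.40 and 11.43 against 10.64, 11.28 and 10.97. Neither gene's groups overlapped, and for both the lowest array was Y330H number 1. Without both Y330H arrays numbered 1 there were 0 calls, and without both WT arrays numbered 1 also 0. In the Tet arrays 3 members were called, all higher in WT (MCM10, CDC45 and CCNE1), where 13.2% of all genes were called, and only MCM10 was common to both.

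The Y330H arrays numbered 1 stood apart for these genes. Both of them, Tet and untagged, lay below the other 4 arrays of that derivative for 24 of the 33 members, or 72.7%, against 18.7% of all genes. Both arrays numbered 2 lay above the other 4 for 16 members, or 48.5%, against 14.3% of all genes. For every other derivative and number, both arrays were below the other 4 for 0 to 11 members and above for 0 to 9. The most below were in HT115 E314K number 1, at 33.3% of members against 17.6% of all genes. The most above were in HCT15 WT number 1, at 27.3% against 16.4%. The median of the 33 levels was 10.98 untagged and 10.92 with Tet in the Y330H arrays numbered 1, and 11.15 to 11.34 in the other 4. The median of the 25 G2/M genes showed no such gap, at 11.39 and 11.38 against 11.31 to 11.36. CDKN1A was 10.84 and 10.85 in the same arrays and 9.79 to 10.14 in the other 4. E2F1 read 9.28 and 9.30 there against 9.74 to 10.03, and CCNE2 read 9.93 and 9.60 against 10.21 to 10.50. In HCT15 WT, CDKN1A was also highest in the arrays numbered 1, at 10.67 untagged and 11.24 with Tet, while the members' median there was 11.33 and 11.26 against 11.33 to 11.38. The ACTB difference of the Y330H arrays numbered 1 was 0.42 and 0.52, within the range of the other arrays. What sets these arrays apart was not tested, and the labels give no culture date or density.

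**Figure D3:**
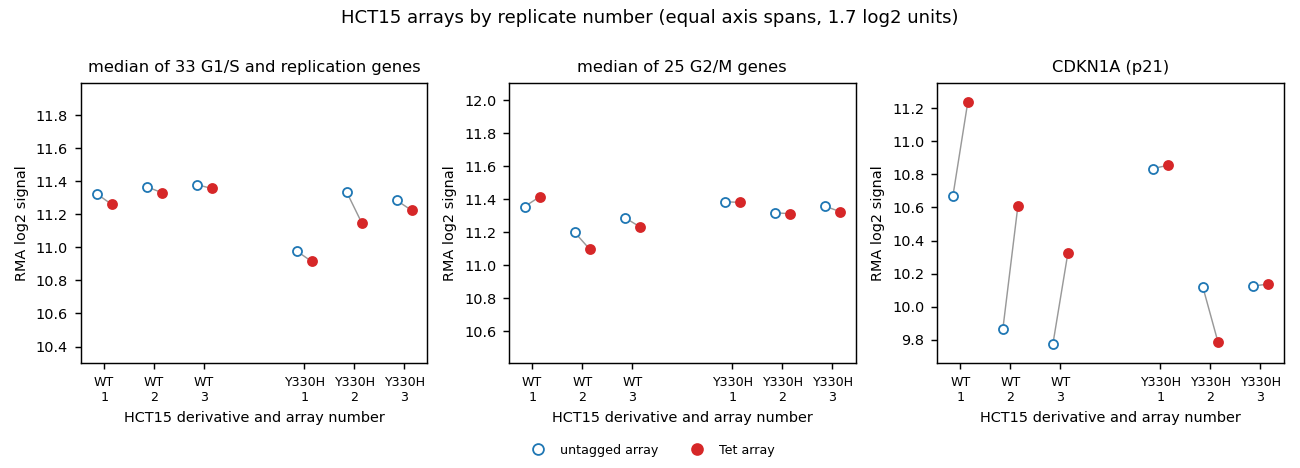
Median RMA log2 level of the 33 members (left) and of 25 G2/M genes (middle), and the level of CDKN1A (right), in each HCT15 array (x axis, derivative and array number; y axes of equal span), open circles untagged and filled circles Tet, joined by pair. The pair Y330H 1 is lowest for the members (10.98 and 10.92) and highest within Y330H for CDKN1A (10.84 and 10.85).

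The lines differed at more of the members. Untagged HT115 E314K was set against untagged HCT15 Y330H, the 2 control derivatives whose arrays share a scale; line and MLK4 form differ together here. Of the 33 members 15 were called, 5 higher in HT115 E314K and 10 lower, against 31.9% of all genes called. Lower were both cyclin E genes, the nucleotide enzymes TYMS, RRM1 and RRM2, SLBP, UHRF1, POLE2, GINS2 and GINS3. Higher were CDC45, MCM7, POLA1, RFC2 and RFC3.

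CCNE2 showed the widest gap, at 9.93, 10.50 and 10.26 in HCT15 Y330H and 8.51, 8.76 and 8.60 in HT115 E314K. The difference was -1.60 (SE 0.18, limma adjusted p = 3.05e-07), or 0.329 times the HCT15 level. CCNE1 read 9.72, 10.63 and 9.96 against 8.93, 9.17 and 9.46, a difference of -0.92 (SE 0.22). GINS3 differed by -0.86 (SE 0.12), at 8.72, 8.89 and 8.74 against 7.82, 7.97 and 7.98. For these 3 genes no HT115 E314K array reached the lowest HCT15 Y330H array. TYMS differed by -0.73 (SE 0.098), from 12.35, 12.49 and 12.64 to 11.71, 11.79 and 11.79. SLBP differed by -0.67 (SE 0.10), from 10.98, 11.22 and 11.19 to 10.56, 10.45 and 10.38, and RRM2 by -0.52 (SE 0.10). In the other direction CDC45 read 9.93, 10.15 and 9.79 in HCT15 Y330H and 10.58, 10.73 and 10.98 in HT115 E314K, a difference of 0.80 (SE 0.12). RFC2 read 9.50, 9.80 and 9.72 against 10.21, 10.35 and 10.63, a difference of 0.72 (SE 0.12). MCM7 and POLA1 were each higher by 0.45 (SE 0.11 and 0.16) and RFC3 by 0.28 (SE 0.096). The helicase subunits MCM2 to MCM6 were not called, with differences of -0.12 to 0.33.

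The Tet arrays of the same derivatives gave 12 calls among the members, 11 of them shared with the untagged arrays, where 31.2% of all genes were called. RFC4 was called there alone, and GINS2, POLA1, POLE2 and RRM1 were not called. MCM7, GINS3, CDC45, RFC2, RRM2, TYMS, CCNE1, CCNE2 and SLBP were called under all 16 alternatives tried. Other lists differed between the lines as well, here in the untagged arrays, where 31.9% of all genes were called. Of the 25 G2/M genes 15 were called, all lower in HT115 E314K, and of 33 other replication genes 14 were called, 8 higher and 6 lower. Among the latter GMNN, geminin, which blocks CDT1, was higher by 0.59 (SE 0.079) and ORC6, an origin recognition subunit, was lower at -1.12 (SE 0.16).

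**Figure D4:**
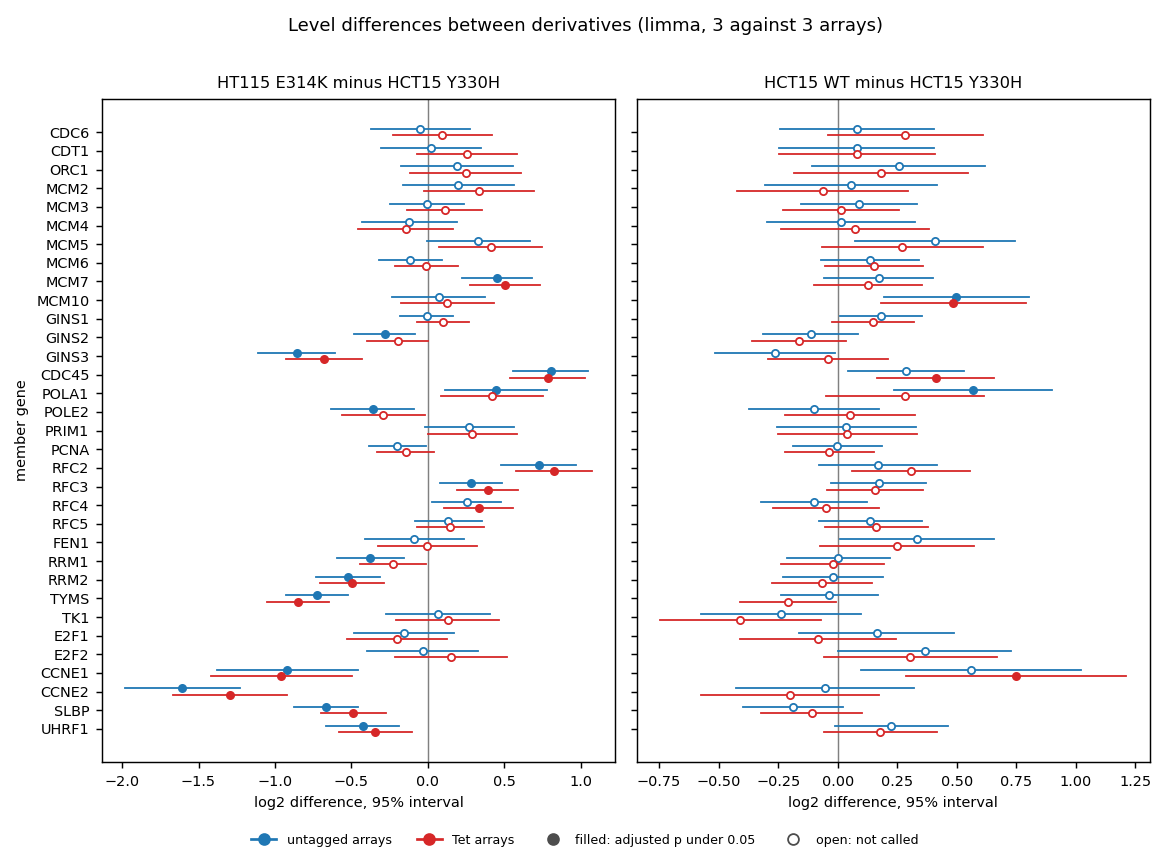
Log2 difference (x axis, with 95% intervals from limma on 3 against 3 arrays) of each of the 33 genes (y axis) between HT115 E314K and HCT15 Y330H (left) and between HCT15 WT and HCT15 Y330H (right), in untagged (blue) and Tet (red) arrays, filled where called. CCNE2 (-1.60) and CCNE1 (-0.92) lie lowest on the left and CDC45 (0.80) highest in the untagged arrays, and few points on the right are filled.

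Most members had more than 1 probe set, 63 in all, and these were compared within each gene. None of the 63 was called in any induction or difference of inductions, when all 54675 probe sets were tested together with limma. Between untagged HCT15 WT and Y330H 0 of the 63 were called, against 4.21% of all probe sets. In the comparison of lines 26 of the 63 were called, 10 higher and 16 lower, against 26.4% of all probe sets. The probe sets of CCNE2 gave -1.60 and -1.50, those of GINS3 -0.86 and -0.78, and those of MCM7 0.45 and 0.76. RFC3 ranged from 0.28 on its brightest probe set to 0.57 and 2.46 on dimmer ones. RFC5 disagreed in sign, with 0.13 on the brightest and -0.41 and -0.34 on the others. CDT1 gave 0.02 and 0.44, and TYMS gave -0.73 and -0.70 on its bright probe sets and 0.32 on a dim one. On induction in HCT15 WT, CCNE2 gave -0.31 and -0.21 and GINS3 gave 0.21 and 0.18. CCNE1, at 0.27 on the brightest probe set, gave -0.20 on a dim one, and MCM6 gave 0.02 and, on a dimmer one, -0.29. CDT1 gave -0.11 and 0.15, and RFC5 gave 0.06 on the brightest and -0.10 and 0.09 on the others. In HCT15 WT the signs of CCNE1, MCM6, CDT1 and RFC5 thus differed between probe sets, with none of these changes called, while those of CCNE2 and GINS3 did not differ.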

How the data were processed

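Gene expression was measured on Affymetrix U133 Plus arrays from amplified RNA, per the labels' protocols. The authors deposited log2 signals per probe set, for which the submitters' processing notes name RMA and Affymetrix Power Tools; versions are not given in the sources used here. Such summaries can compress ratios of dim or saturated probes. Of 54675 probe sets, 41097 named a single gene, 1801 several and 11777 none; the brightest single-gene probe set over all 24 arrays stood for each of 19775 genes, with no filter on dim ones.

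Tests were made with limma (version 3.58.1, under R 4.3.3): contrasts among 8 group means, a variance prior without trend, 16 residual degrees of freedom plus 4.83 from the prior, and Benjamini-Hochberg adjustment over all genes. The scripts were tested on simulated data. Deviations of same-numbered arrays from their group means correlated across genes in HCT15 WT (r of 0.581, 0.488 and 0.416) and Y330H (0.767, 0.618 and 0.310), which was taken as pairing. It was not taken so in HT115 (0.594, 0.051 and 0.317 in E314K; 0.226, 0.188 and -0.005 in WT). A second fit, the replicate block, adds the array number within a derivative as a term and has 8 residual degrees of freedom.

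The members and all gene lists were chosen with earlier results of these data known. Array values were given for the 8 members with the smallest p in the HCT15 WT induction and the 4 in the HT115 WT induction, and for up to 6 called members per direction in comparisons of levels. From other lists, up to 3 called genes per direction or those with the smallest p were named. Promoter windows came from RefSeq (GRCh38.p14), and the number of arrays limits the precision. HT115 WT levels were not compared with other arrays, since that table appears to join sets normalized separately.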

Additional observations from a re-analysis of the deposited data

How the results depend on the processing

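The count of called members stayed at 0 in all 4 inductions and all 3 differences of inductions under every alternative tried, with 1 exception. In HCT15 WT arrayWeights gave 1 call, GINS3 (adjusted p = 0.0271). The replicate block changed none of these counts of members and left each median as it was, -0.078 in HCT15 WT. Leaving out single arrays gave 0 to 0 calls in each induction. The count of members called between untagged HCT15 WT and Y330H, 2 in the fit of all arrays, was 1 with the mean of probe sets, 7 with arrayWeights, and 0 with only the arrays of the derivatives compared, without both WT arrays numbered 1 or without both Y330H arrays numbered 1 (the last chosen after seeing the data), and 0 to 3 without single arrays. It was 0 without either untagged array numbered 1 and without untagged WT array 2. The median change of the members in HT115 E314K, 0.043, was 0.081 with median-centred arrays, 0.030 with quantile normalization within a scale, and 0.030 to 0.057 without single arrays. The line comparison gave 11 to 17 calls among the members. Shares of all genes called under the alternatives are not given here, so no count in this section is read as particular to the members. Arrays of 3 per group limit the resolution to changes larger than the intervals given.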

Other observations

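Some cell cycle genes outside the replication set differed widely between untagged HT115 E314K and HCT15 Y330H, where 31.9% of all genes were called. CCND2, a D-type cyclin, was higher in HT115 E314K by 6.22 on the log2 scale (SE 0.71), and CDK6, a kinase partner of D cyclins, by 1.57 (SE 0.14). Both also differed between the untagged HCT15 derivatives, where WT was above Y330H by 3.80 (SE 0.71, limma adjusted p = 0.0023) for CCND2 and by 0.73 (SE 0.14, limma adjusted p = 0.0028) for CDK6, so the gap between the lines depends on the HCT15 derivative used. CCNA2, the S and G2 cyclin, was lower, at -1.14 (SE 0.091), in the same direction as both cyclin E genes. MSH6, a mismatch repair protein, was higher by 1.91 (SE 0.11), and RRM2B, a ribonucleotide reductase subunit that p53 induces, was lower at -1.51 (SE 0.22). Each of these passed limma's adjusted p of 0.05, and line and MLK4 form differ together in the comparison.

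In HCT15 WT, 2 of 11 colon epithelium markers were called on induction, against 0.698% of all genes, while 7 of the 11 were below 0. Both called were higher: KRT20 by 1.497 (SE 0.26, limma adjusted p = 0.0057) and KRT19 by 0.70 (SE 0.11, limma adjusted p = 0.0028). With the replicate block 4 were called, against 4.86% of all genes, and the added markers were lower: VIL1, an actin-binding protein of the brush border, at -0.72 (adjusted p = 0.0012 in the block fit), and CDX2, an intestinal transcription factor, at -0.47 (adjusted p = 0.0059 in the block fit). In HCT15 Y330H KRT20 and KRT19 changed by 0.07 and 0.0002, neither called. In HT115 WT KRT20 changed by 0.90 and KRT19 by 0.28, neither called.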
